A study of Mus musculus with 18 samples.

Results

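The 7 genes described here are the 5 members of the Ikaros family of zinc finger transcription factors, *Ikzf1* to *Ikzf5*, and the 2 forkhead genes *Foxp1* and *Foxo3*. They were chosen by name with earlier results of these data known. All 7 were found among the 16545 genes of the expression table. RNA-seq had been done on 18 libraries of purified splenic B cells of C57BL/6 mice, collected at 0, 24 and 48 h of culture with LPS, with 3 libraries per genotype and time. Zbtb24 B-CKO mice were Zbtb24 loxp/loxp with 1 allele of a B-lineage Cre, which removes exon 2 of *Zbtb24* with its translation start in B-lineage cells. Littermate controls, labelled CON, were Zbtb24 +/+ with the same Cre allele by the study's methods, so that both genotypes carried Cre. The age and sex of the mice used for these libraries are not given in the sources used here. No library had been cultured without LPS, so the effect of LPS cannot be told apart from that of time in culture. The comparisons ask whether these genes move during activation and whether loss of ZBTB24 in B cells changes their level at any time. Values are FPKM, fragment counts scaled to transcript length and to the size of the library, which allow levels of different genes to be compared per length. How many fragments each value rests on is unknown.

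Ikaros (*Ikzf1*) and Aiolos (*Ikzf3*) bind DNA through zinc fingers in the first part of the protein, pair with each other through fingers at the other end, and recruit repressor complexes such as NuRD. In the B lineage Ikaros is needed from the earliest progenitors on, and Aiolos is prominent in mature B cells. In human cells lenalidomide directs both to degradation by the cereblon ubiquitin ligase, which mouse cereblon does not support. *Foxp1* is a forkhead repressor required for early B cell development and linked to the quiescence of mature cells. FOXO factors such as Foxo3 activate genes of quiescence, cell death and homing in resting lymphocytes, and are phosphorylated by AKT, bound by 14-3-3 proteins and kept out of the nucleus after activation. mRNA levels therefore say nothing of how much FOXO protein is active.

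*Zbtb24* was 45.4 ± 7.24 FPKM in controls and 12.5 ± 1.90 in Zbtb24 B-CKO cells at 0 h (mean ± SD, n = 3 per group throughout). After 24 h with LPS it was 17.6 ± 1.66 against 10.9 ± 0.677, and after 48 h 15.2 ± 1.86 against 10.4 ± 1.08. The genotypes did not overlap at any time, but with adjustment over all genes limma gave adjusted p = 0.12, 0.0586 and 0.267. Reads from the exons outside the deletion still count towards the gene. The 8 B cell markers examined, such as *Cd79a* and *Ms4a1*, were above 1 FPKM in every group, and their sum ranged from 3998 to 5366 FPKM at 0 h. The summed T cell markers were at 25.5 to 36.9 FPKM at 0 h, of which *Lck* took the greatest part, and 7 of 11 of them averaged at least 1 FPKM in each genotype. Pearson's r between libraries of a group was 0.986 to 0.999 over genes, and the median SD of log2 values was 0.169 and 0.158 at 0 h against 0.0545 to 0.0852 later. The libraries numbered 1 of both genotypes stood apart from the others at 0 h. In bulk RNA, fewer cells of a type and less RNA per cell cannot be told apart.

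Ikaros, Aiolos and Pegasus were the Ikaros family transcripts of these B cells. In control cells at 0 h *Ikzf3* was the highest of the 7 genes at 168, 138 and 139 FPKM in the 3 libraries. It was followed by *Ikzf1* at 123, 113 and 129 FPKM. The ranges did not overlap, so *Ikzf3* stood above *Ikzf1* in every control library at 0 h. *Ikzf5*, which encodes Pegasus, was far lower at 13.5, 13.5 and 16.2 FPKM. Helios (*Ikzf2*), a factor of regulatory T cells, was at 0.02 to 0.05 FPKM at 0 h and at most 0.01 later, and no fold is given for it. Eos (*Ikzf4*), which like Helios acts in regulatory T cells, was at 0 to 0.09 FPKM at 0 h. Both lay close to the smallest value the table can hold, and *Foxp3*, which marks the same T cells, was at 0.147 FPKM in controls at 0 h.

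**Figure D1:**
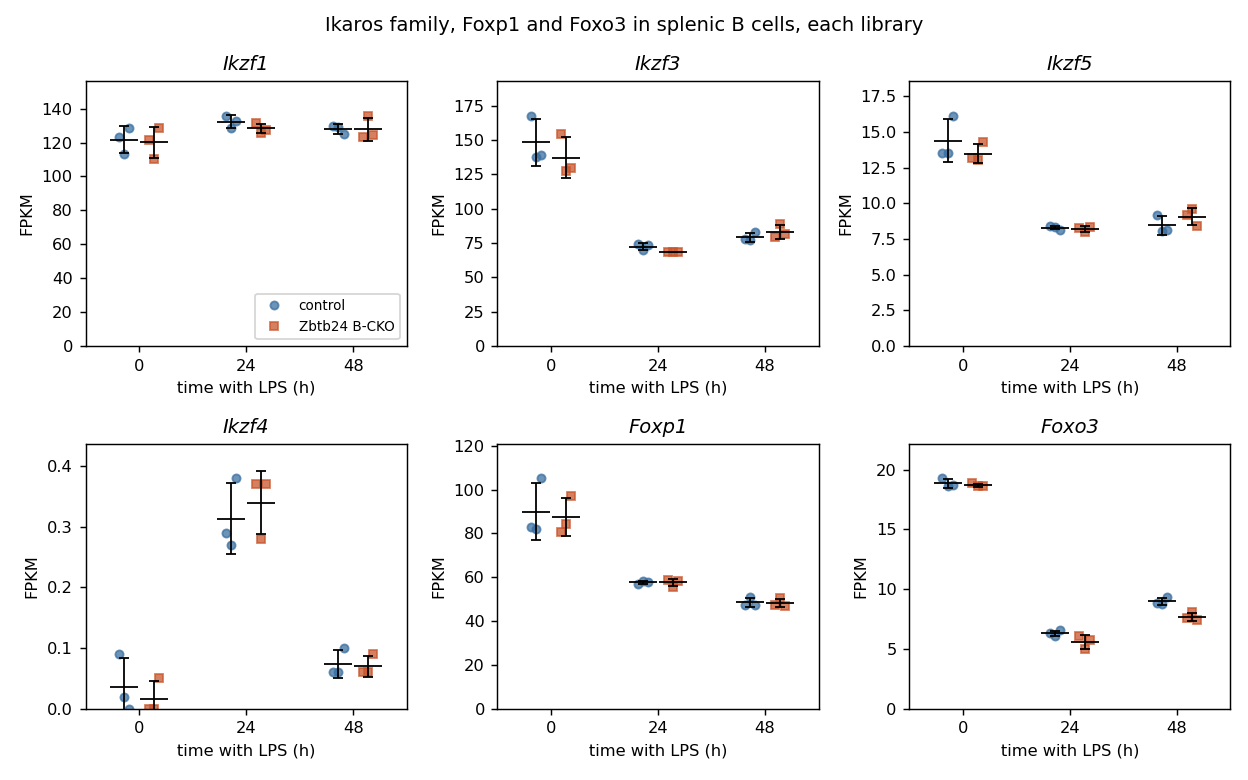
FPKM of 6 of the 7 genes (vertical axes, from 0) at 0, 24 and 48 h with LPS (horizontal axes), with each library as a point, controls as circles and B-CKO as squares, and mean and SD in black, bars cut off at 0. *Ikzf1* stays between 110 and 136 FPKM in all 18 libraries while *Ikzf3*, *Ikzf5*, *Foxp1* and *Foxo3* are lower at 24 h than at 0 h in both genotypes; *Ikzf2*, at most 0.05 FPKM, is not drawn.

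Activation moved these transcripts in different directions. Between 0 and 24 h, 5 of the 7 genes passed the test in control cells, 1 upward and 4 downward, where 57.4% of all genes tested were called, 26.7% upward and 30.7% downward. In B-CKO cells the same 5 genes were called in the same directions, with 59.8% of all genes called, 27.5% upward and 32.3% downward. The median log2 difference of the 7 genes was -0.62 in controls and -0.59 in B-CKO cells, beside -0.02 for all genes in both.

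*Ikzf1* was the well-expressed member that was not called between 0 and 24 h. Its values at 24 h were 136, 129 and 132 FPKM in controls and 131, 126 and 128 in B-CKO cells, overlapping those at 0 h. The difference was 0.12 ± 0.06 on the log2 scale (estimate ± SE, adjusted p = 0.15) in controls and 0.10 ± 0.07 in B-CKO cells (adjusted p = 0.256). The sign turned when libraries were rescaled to a common total, giving -0.04 and -0.07, while scaling by the median ratio gave a called rise in controls (0.19, adjusted p = 0.0447), as did leaving out control replicate 3 of 0 h (0.16, adjusted p = 0.0464). At 48 h *Ikzf1* was 128 ± 2.79 FPKM in controls and 128 ± 6.76 in B-CKO cells, overlapping the 24 h values.

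Aiolos moved most among the well-expressed Ikaros genes. *Ikzf3* was 74.2, 69.6 and 73.6 FPKM in controls at 24 h, each below every 0 h library, a 2.05-fold decrease (log2 difference -1.02 ± 0.09, adjusted p = 0.000138). In B-CKO cells it was 68.6, 68.7 and 68.4 FPKM at 24 h after 155, 128 and 130 at 0 h, a 2.00-fold decrease (adjusted p = 8.57e-05). It then rose slightly to 79.3 ± 3.28 FPKM in controls at 48 h and to 79.6, 88.95 and 81.3 in the B-CKO libraries. The rise was 0.28 ± 0.05 in B-CKO cells (adjusted p = 0.00263) and 0.13 ± 0.04 in controls (adjusted p = 0.0438). The control call was lost with common totals (adjusted p = 0.158) and without any of 5 of the 6 libraries (0.0668 to 0.134).

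The balance within the family turned over accordingly. The ratio of *Ikzf1* to *Ikzf3* FPKM rose in controls from 0.826 ± 0.0953 at 0 h to 1.83 ± 0.0241 at 24 h, and was 1.62 ± 0.0993 by 48 h. In B-CKO cells it was 0.880 ± 0.103, 1.87 ± 0.0410 and 1.53 ± 0.0120. Below 1 in all 6 libraries at 0 h, the ratio was above 1 in all 12 libraries later, and no 2 times overlapped in either genotype. An exact two-sided permutation test gave p = 0.1 for each step, which is the smallest p that 3 against 3 allows. The share of *Ikzf3* in the summed Ikaros FPKM over the 3 times was 52.1%, 34.0% and 36.7% in controls, and 50.6%, 33.4% and 37.8% in B-CKO cells. The genotypes overlapped in the ratio and in the share at each time.

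**Figure D2:**
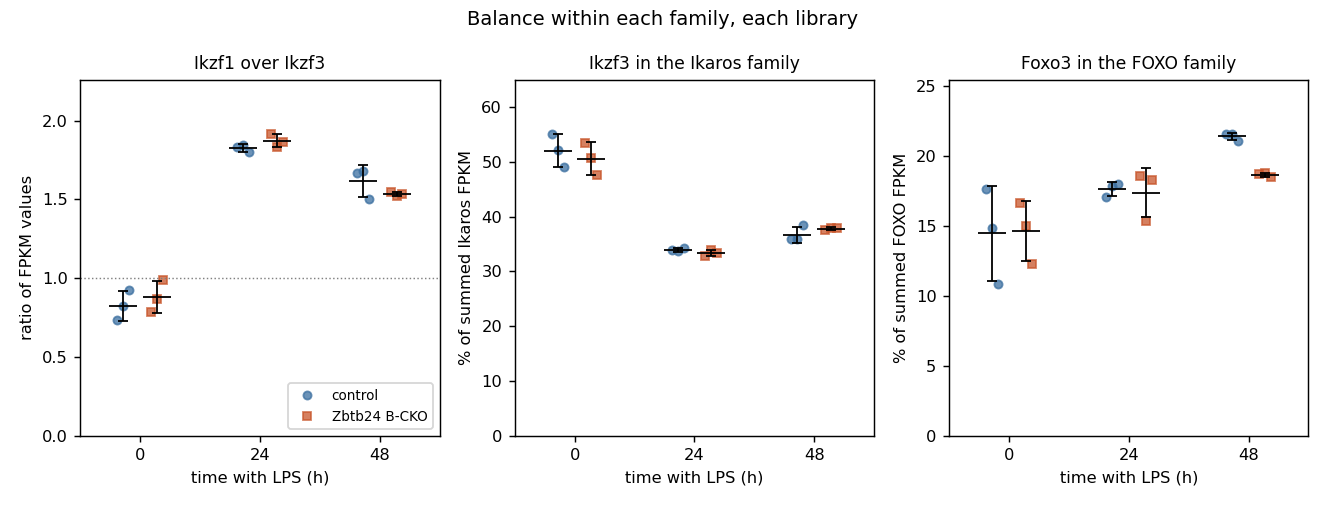
Ratio of *Ikzf1* to *Ikzf3* FPKM (left, dotted line at 1), share of *Ikzf3* in the summed Ikaros FPKM (middle) and share of *Foxo3* in the summed FOXO FPKM (right), by time with LPS, each library as a point with group mean and SD. The *Ikzf1* to *Ikzf3* ratio lies below 1 at 0 h and above 1 at 24 and 48 h in all libraries, and the *Foxo3* share separates the genotypes at 48 h only.

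*Ikzf5* fell 1.73-fold in controls, to 8.39, 8.38 and 8.16 FPKM at 24 h (log2 difference -0.72 ± 0.09, adjusted p = 0.000738), and 1.64-fold in B-CKO cells (adjusted p = 0.00029). It was 8.47 ± 0.654 and 9.07 ± 0.613 FPKM at 48 h, with no call against 24 h, except without B-CKO replicate 3 of 48 h, where its rise in B-CKO cells was called (0.18, adjusted p = 0.0405). In GENCODE vM21, *Ikzf5* shares 3392 bp of exon with *Pstk* on the other strand, and whether the counting used strand is not stated, so reads of the pair may be mixed. *Pstk* itself was 6.91 FPKM at 0 h and 6.32 at 24 h in controls and was not called (adjusted p = 0.729).

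*Ikzf4* was the member that rose, though from near 0. It was 0.29, 0.27 and 0.38 FPKM in controls at 24 h and 0.37, 0.28 and 0.37 in B-CKO cells, above every 0 h library. The log2(FPKM + 1) difference was 0.34 ± 0.05 in controls (adjusted p = 0.00101) and 0.40 ± 0.04 in B-CKO cells (adjusted p = 0.000156). By 48 h it was back at 0.06 to 0.10 FPKM, a decrease called in both genotypes (adjusted p = 0.000894 and 0.000291). Between 0 and 24 h all 11 T cell markers were called lower in both genotypes, with sums of 10.5 to 15.6 FPKM at 24 h. The cells that the *Ikzf4* reads come from were not tested. In the annotation a 37 bp stretch of *Ikzf4* exon lies opposite a long non-coding gene that is not in the table.

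*Foxp1* declined in steps. Control libraries had 82.9, 81.8 and 105 FPKM at first, 57.0, 58.3 and 58.0 after 24 h and 47.5, 50.8 and 47.4 after 48 h. In B-CKO cells it was 80.8, 84.3 and 97.1 FPKM, then 58.8, 55.7 and 58.5, then 47.6, 50.4 and 46.9. Each time lay entirely below the one before in both genotypes. The step from 0 to 24 h was -0.62 ± 0.10 in controls (adjusted p = 0.00245) and -0.59 ± 0.08 in B-CKO cells (adjusted p = 0.000734). The next step was -0.25 in both (adjusted p = 0.00157 and 0.00228).

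*Foxo3* fell most of all members and partly recovered. Control libraries had 19.3, 18.6 and 18.7 FPKM before LPS, 6.30, 6.08 and 6.55 after 24 h and 8.89, 8.74 and 9.33 after 48 h. In B-CKO cells it was 18.9, 18.6 and 18.6 FPKM, then 6.06, 4.96 and 5.74, then 7.61, 8.06 and 7.40. The 3 times were fully separated in each genotype. The decrease was 2.99-fold in controls (log2 difference -1.44 ± 0.07, adjusted p = 1.51e-05) and 3.35-fold in B-CKO cells (-1.58 ± 0.09, adjusted p = 1.53e-05). The later increase was 1.42-fold (adjusted p = 0.00067) and 1.38-fold (adjusted p = 0.00608). Between 24 and 48 h, 4 of the 7 genes were called in each genotype, *Ikzf3* and *Foxo3* upward and *Ikzf4* and *Foxp1* downward, where 44.9% of all genes were called in controls (20.1% upward, 24.8% downward) and 45.7% in B-CKO cells (21.7% upward, the other 3657 of 6964 called genes downward). Handling-sensitive immediate early genes moved over the first interval too, from a summed 2665 FPKM in controls at 0 h to 161 at 24 h, and their part in these decreases was not tested. The calls of all 5 genes at 24 h were the same without both 0 h libraries numbered 1.

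The order of the 7 genes changed with time. In controls it ran *Ikzf3*, *Ikzf1*, *Foxp1*, *Foxo3*, *Ikzf5*, *Ikzf4*, *Ikzf2* at 0 h, with only the last pair overlapping. At 24 h *Ikzf1* was first and *Ikzf3* next, and *Ikzf5* stood above *Foxo3*, with no neighbours overlapping. At 48 h *Foxo3* and *Ikzf5* were again neighbours at 8.99 and 8.47 FPKM and their libraries overlapped. B-CKO cells had the same order of the 5 well-expressed genes at 0 and 24 h, but *Ikzf3* and *Ikzf1* overlapped at 0 h, and at 48 h *Ikzf5* (9.07 FPKM) stood above *Foxo3* (7.69) without overlap.

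Promoter sequences are shown for 4 members that were well expressed, one that was not called over time and 3 that fell together, to show their base composition and motif content. They are RefSeq windows on GRCm38.p6, the assembly also called mm10, from 250 bases before to 50 after an annotated start, written 5′ to 3′ along the gene, with matches to the searched motifs in capitals. For *Ikzf2*, *Ikzf3* and *Ikzf4* none is shown. *Ikzf1* lies on the plus strand at chr11:11684962-11772930, and of its 2 windows the one at chr11:11685675-11685974, printed here, has 81.3% G and C and 52 CG steps, the other 49% and 2. *Foxo3* lies on the minus strand at chr10:42181845-42276695, with 75% G and C and 35 CG steps in chr10:42276646-42276945. *Ikzf5* is on the minus strand at chr7:131388649-131410518, with 65.7% G and C and 27 CG steps in chr7:131410429-131410728. *Foxp1* is on the minus strand at chr6:98925342-99522746, and of its 3 windows the one at chr6:99266466-99266765, printed for its motif match, has 48.7% G and C and 5 CG steps, and the others have 60.3% and 75.3%. The composition of a gene thus depends on the window chosen.
Ikzf1: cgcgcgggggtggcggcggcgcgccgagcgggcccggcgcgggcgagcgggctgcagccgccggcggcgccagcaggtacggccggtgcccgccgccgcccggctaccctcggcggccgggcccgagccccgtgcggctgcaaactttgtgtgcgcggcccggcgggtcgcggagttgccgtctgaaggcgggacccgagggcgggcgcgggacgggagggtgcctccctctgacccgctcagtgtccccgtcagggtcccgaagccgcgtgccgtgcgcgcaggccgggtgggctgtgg
Foxo3: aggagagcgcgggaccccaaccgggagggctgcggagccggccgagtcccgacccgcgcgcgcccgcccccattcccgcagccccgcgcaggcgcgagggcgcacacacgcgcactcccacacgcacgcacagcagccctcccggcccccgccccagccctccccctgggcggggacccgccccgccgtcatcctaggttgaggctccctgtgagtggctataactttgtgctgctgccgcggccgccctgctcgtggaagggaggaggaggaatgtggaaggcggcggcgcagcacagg
Ikzf5: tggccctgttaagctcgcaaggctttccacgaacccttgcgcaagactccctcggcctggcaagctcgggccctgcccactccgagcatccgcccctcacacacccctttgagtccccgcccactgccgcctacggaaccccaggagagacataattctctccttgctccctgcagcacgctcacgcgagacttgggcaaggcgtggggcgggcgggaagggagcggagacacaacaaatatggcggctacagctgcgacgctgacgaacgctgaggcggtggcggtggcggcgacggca
Foxp1: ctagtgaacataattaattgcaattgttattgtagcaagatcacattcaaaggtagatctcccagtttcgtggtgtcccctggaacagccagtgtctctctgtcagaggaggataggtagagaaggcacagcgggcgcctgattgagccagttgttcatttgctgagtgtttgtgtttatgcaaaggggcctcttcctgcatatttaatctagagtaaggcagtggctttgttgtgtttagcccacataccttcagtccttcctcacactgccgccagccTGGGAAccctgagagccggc

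Motifs were searched on both strands in 32851 such windows of mouse genes: the Ikaros core TGGGAA, the FOXO site TGTTTAC and the ZBTB24 site CAGGACCT. The Ikaros core was in 25.6% of all windows, and among the 7 windows of the 4 members it was found only in the *Foxp1* window printed above, beginning at base 31 after the start. TGTTTAC (3.65% of all windows) and CAGGACCT (1.99%) were in none of the 7, which says only that these letters are not in these windows. *Zbtb24* itself has a TGGGAA at -227. The other members are at chr11:98464610-98546031 (*Ikzf3*, minus strand), chr1:69531207-69687351 (*Ikzf2*, minus strand) and chr10:128630839-128669671 (*Ikzf4*, minus strand). All 7 genes are protein coding.

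Other forkhead genes moved unevenly. Of 30 further forkhead genes tested in controls between 0 and 24 h, 14 were called lower, 2 higher and 14 were not called, beside 30.7% of all genes called lower and 26.7% higher. Their median log2 difference was -0.06, beside -0.02 for all genes. *Foxo4* fell from 22.2 to 5.85 FPKM, 3.79-fold (adjusted p = 9.22e-06), *Foxo1*, the most abundant FOXO gene, from 94.3 to 23.6 (adjusted p = 0.000595), and *Foxp4* from 48.7 to 23.9. *Foxk1* fell from 27.2 to 16.2 FPKM and *Foxj2* from 26.3 to 7.11. The 2 called higher were *Foxm1*, a driver of mitotic genes, which rose from 3.60 to 9.89 FPKM, and *Foxk2*, from 12.2 to 27.2. *Foxo3* held 14.5% of the summed FOXO FPKM in controls at 0 h, 17.6% after 24 h and 21.4% after 48 h.

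Known targets of FOXO factors fell over the same interval as the FOXO genes and came back in part. They had been listed with earlier results of these data known. Of a list of 30, 24 were called lower and 1 higher (*Sod2*) in controls between 0 and 24 h, where 30.7% and 26.7% of all genes were, with a median log2 difference of -1.50 beside -0.02 for all genes. *Klf2*, which keeps lymphocytes quiescent, fell from 838 to 72.3 FPKM, 11.6-fold (adjusted p = 5.17e-06). *S1pr1*, the receptor for exit from lymphoid organs, fell from 179 to 8.92 FPKM, 20.1-fold (adjusted p = 6.51e-06), and *Btg1*, which restrains proliferation, from 608 to 42.6. *Gadd45a*, a gene of the DNA damage response, fell from 58.7 to 4.497 FPKM, and *Sod2*, a mitochondrial superoxide dismutase, rose from 13.9 to 18.7. *Irs2*, an adaptor of insulin signalling, fell from 352 to 2.08 FPKM. Between 24 and 48 h, 18 of the 30 were called higher and 3 lower, where 20.1% and 24.8% of all genes were (median 0.39 beside -0.0047 for all genes). *Ccng2*, a cyclin of quiescent cells, returned to 33.1 FPKM at 48 h after 33.1 at 0 h and 8.71 at 24 h. B-CKO cells had 24 lower and 1 higher, then 19 higher and 4 lower. Some of these genes answer to other regulators as well. Several B cell markers fell between 0 and 24 h, 6 of 8 in controls and 7 of 8 in B-CKO cells. All 8 handling-sensitive immediate early genes were called lower in both genotypes as well, and their part in the fall of the targets was not tested.

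**Figure D3:**
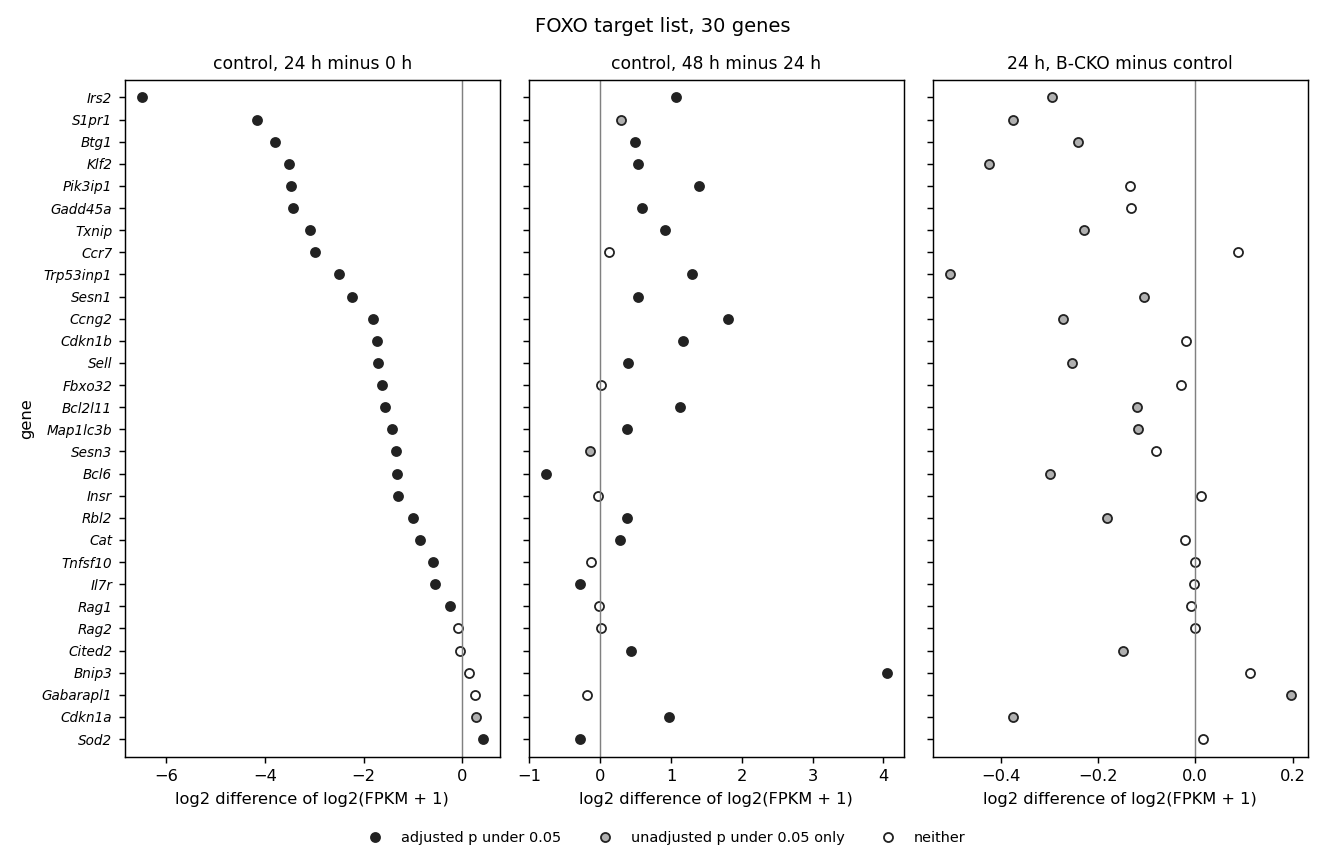
Log2 differences of log2(FPKM + 1) for the 30 FOXO targets (vertical axis) in controls from 0 to 24 h (left), in controls from 24 to 48 h (middle) and between genotypes at 24 h (right), on different horizontal scales. Black points have an adjusted p under 0.05, grey points an unadjusted p under 0.05 only, and white points neither; 24 targets are called lower on the left, 18 higher in the middle, and 15 lie to the left in grey on the right.

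Partners of the Ikaros proteins shifted as a mixed group, to be read beside the 26.7% of all genes called higher, the 30.7% called lower and the median of -0.02 over this interval. Of 18 NuRD and co-repressor genes, 10 were called higher and 5 lower in controls between 0 and 24 h (median 0.27). The histone-binding subunit *Rbbp7* rose from 49.0 to 201 FPKM and the deacetylase *Hdac2* from 22.0 to 65.4. *Rbbp4* and *Mta1* rose too, from 36.1 to 78.4 and from 29.4 to 48.2 FPKM. *Mta3*, a subunit known from germinal centre B cells, fell from 43.5 to 21.0 and the remodeler *Chd3* from 54.9 to 28.4, with *Gatad2b* (28.3 to 16.5) and the methyl-CpG binding *Mbd2* (83.4 to 62.1) also lower. Among 5 genes of the cereblon ligase, *Ddb1* rose from 61.9 to 136 FPKM, *Rbx1* from 28.4 to 57.04, and cereblon itself, *Crbn*, fell from 18.8 to 12.5 FPKM (1.51-fold, adjusted p = 0.00705).

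Of 13 genes known as targets of Ikaros or Aiolos, 2 were called higher and 6 lower in controls between 0 and 24 h (median -0.12). Of all genes, 26.7% were called higher and 30.7% lower (median -0.02). *Ccnd2*, a cyclin of cell cycle entry, rose 13.5-fold from 14.1 to 190 FPKM, and *Hes1*, a Notch target, fell 22.0-fold from 53.9 to 2.45. The other cyclin on the list, *Ccnd3*, rose from 39.6 to 115 FPKM. *Cdkn1b*, an inhibitor of the cell cycle, fell from 73.8 to 21.5 and *Vpreb3* from 87.5 to 6.50, and *Rag1*, of the recombinase of antigen receptor genes, was near 0 throughout (0.203 and 0.01 FPKM, called lower). Of 21 genes of the AKT and 14-3-3 arm, 8 were called higher and 9 lower (median -0.05), beside the same shares and median of all genes. *Akt1* rose from 50.4 to 103 FPKM and *Ywhae*, a 14-3-3 gene, from 110 to 362, while *Sgk1*, a kinase that also phosphorylates FOXO proteins, fell from 19.4 to 0.477. *Ywhag*, another 14-3-3 gene, rose from 22.8 to 94.6 FPKM and the nuclear export receptor *Xpo1* from 36.8 to 72.99. The 14-3-3 gene *Sfn* fell from 46.95 to 15.7 FPKM, the kinase *Stk4* from 75.9 to 46.99 and the ubiquitin ligase *Mdm2* from 34.7 to 22.6.

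Between genotypes, none of the 7 genes passed the test at any time. Of all genes tested, limma called 0.0%, 0.0993% and 0.046% at the 3 times. At an unadjusted p under 0.05 the members numbered 0, then 1 (*Ikzf3*), then 1 (*Foxo3*), against 2.0%, 16.3% and 7.71% of all genes. For *Ikzf1*, *Ikzf5* and *Foxp1* the log2 estimates lay between -0.08 and -0.02 at 0 h, between -0.04 and -0.0033 after 24 h and between -0.0086 and 0.09 after 48 h. For *Ikzf3* at 0 h it was -0.11 ± 0.12, and -0.019 without control replicate 1. Same-numbered libraries deviate together at that time, and within the 3 pairs *Ikzf3*, *Ikzf1* and *Ikzf5* were lower in B-CKO cells each time, as was the *Ikzf3* share, *Foxp1* and *Foxo3* in 2 of 3. With the replicate block none was called (adjusted p = 0.86 for *Ikzf3*, 0.948 for *Ikzf1* and 0.918 for *Ikzf5*). Without the block, the 95% interval of *Foxp1* was wide at 0 h, from -0.34 to 0.27, and narrow at 24 h, from -0.07 to 0.06. A difference the size of the activation changes of *Ikzf3* or *Foxo3* lay outside the intervals of all 5 well-expressed members at each time.

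*Foxo3* was the member with the largest estimates between genotypes after activation. Its mean was 1.13-fold lower in B-CKO cells at 24 h, 5.59 ± 0.566 against 6.31 ± 0.235 FPKM, and 1.17-fold lower at 48 h, 7.69 ± 0.337 against 8.99 ± 0.307. At both times every B-CKO library lay below every control library, while at 0 h the groups overlapped at 18.7 ± 0.139 and 18.9 ± 0.365. Adjusted p was 0.365 at 24 h (log2 difference -0.15 ± 0.07, and -0.08 without B-CKO replicate 2, at 4.96 FPKM) and 0.463 at 48 h (-0.20 ± 0.06, 95% interval -0.35 to -0.05, unadjusted p = 0.0144). *Ikzf3* was also separated downward at 24 h, at -0.08 ± 0.03 (unadjusted p = 0.0324, adjusted p = 0.254). Groups separated downward in 11.7% of all genes at 24 h and 6.24% at 48 h, so 2 of 7 and 1 of 7 members are read beside those shares. *Foxo3* held 18.7 ± 0.150% of the summed FOXO FPKM in B-CKO cells at 48 h against 21.4 ± 0.263% in controls, without overlap (exact two-sided permutation p = 0.1, the smallest possible). At 24 h *Foxo3* was not alone in this: *Foxo1* (-0.16, adjusted p = 0.168), *Foxo4* (-0.09, adjusted p = 0.45) and *Foxp4* (-0.17, adjusted p = 0.155) also lay entirely below the controls, uncalled. *Foxk2* lay entirely above them, 29.8 against 27.2 FPKM (0.13, adjusted p = 0.0982), also uncalled. Of 25 other forkhead genes tested at 24 h, 6 had an unadjusted p under 0.05, 4 lower and 2 higher. Of all genes, 16.3% had one in either direction. With genes under a mean of 1 FPKM set aside, 4.0% of the remaining genes were called at 24 h in either direction. Among them 1 other forkhead gene, *Foxn3*, was called lower, 6.43 against 7.61 FPKM (adjusted p = 0.0491). At 48 h *Foxo1*, *Foxo4* and *Foxp4* overlapped, with estimates of 0.04, -0.03 and 0.09. Beside the 48 h difference, summed T cell markers were 9.5 to 11.1 against 13.2 to 14.3 FPKM in controls, mostly *Lck* (8.11 to 9.51 against 11.7 to 12.2), the myeloid marker *Itgam* was 2.99 to 4.14 against 4.35 to 6.03, and *Flt3* 31.4 to 31.9 against 23.2 to 28.7. Summed erythroid markers were 11.6 to 16.3 against 9.67 to 9.93, which *Hbb-bt* alone carried. The other erythroid markers summed to 0 to 0.24 against 0.03 to 1.27 FPKM, and of the 4 estimates 1 was higher and 3 lower. None of the markers named for 48 h was called, and their part was not tested.

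**Figure D4:**
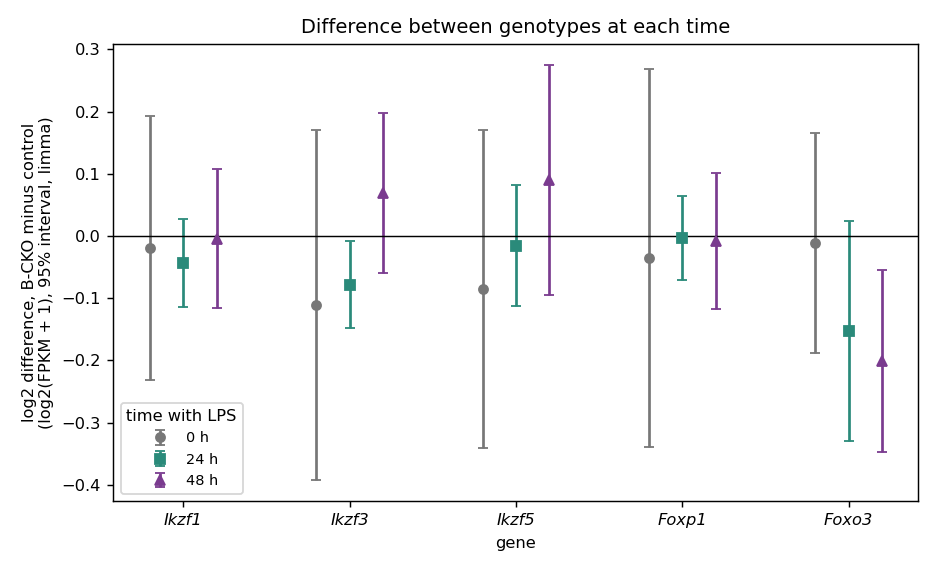
Log2 difference of log2(FPKM + 1), B-CKO minus control, for the 5 well-expressed members (horizontal axis) at 0, 24 and 48 h, with limma's 95% interval as bars and a line at 0. No gene passed the adjusted threshold, and the interval of *Foxp1* is wider at 0 h than at 24 h. The 48 h interval of *Foxo3*, -0.35 to -0.05, and the 24 h interval of *Ikzf3*, -0.15 to -0.01, lie below 0.

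Whether the time course itself differed between genotypes was tested with the interaction. No member passed for 0 to 24 h or for 24 to 48 h, where limma called 0.0% of all genes (467 and 1158 genes, 2.89% and 7.31%, had an unadjusted p under 0.05, among them 0 and 1 of the members). For *Foxo3* the decrease differed by -0.14 (95% interval -0.36 to 0.07) and the recovery by -0.05 (-0.25 to 0.16). For *Ikzf3* the later rise differed by 0.15 (0.01 to 0.29, unadjusted p = 0.0402, adjusted p = 0.667).

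FOXO targets leaned lower in B-CKO cells at 24 h without passing the test. Their list had been chosen with earlier results of these data known, so it is not independent of them. None of the 30 was called at 24 h, and 16 had an unadjusted p under 0.05, 15 of them lower. Of all genes, 16.3% had such a p in either direction, a share that includes genes under a mean of 1 FPKM. The share of all genes lower at that p was not computed. The list's median was -0.12, beside -0.0046 for all genes, and -0.02 at 0 h and 0.02 at 48 h. Leaving out any 1 library at 24 h left 10 to 16 of them lower at an unadjusted p under 0.05. With genes under a mean of 1 FPKM set aside, 4.0% of 9711 genes were called at 24 h in either direction. Of 26 targets 7 were called, all lower: *Klf2*, *S1pr1*, *Btg1*, *Txnip*, *Bcl6*, *Ccng2* and *Trp53inp1*. *Klf2* was 53.7 ± 4.47 against 72.3 ± 4.87 FPKM and *Trp53inp1*, a stress-response gene, 3.13 ± 0.0709 against 4.88 ± 0.600. No target was called at 48 h in that setting, where 0.294% of all genes were. Among the Ikaros targets, *Ccnd2* was higher in it at 24 h, 216 ± 2.63 against 190 ± 1.78 FPKM (adjusted p = 0.0159), and no member was called. Summed B cell markers were 2029 to 2100 FPKM in B-CKO cells and 2186 to 2348 in controls at 24 h, with all 8 estimates lower and none called. Summed T cell markers were 10.5 to 11.8 against 12.7 to 15.6, which *Lck* alone carried (8.24 to 9.31 against 11.2 to 13.3): 8 of the 11 estimates were higher in B-CKO cells, and the list's median was 0.04. Immediate early genes summed to 139 to 154 against 158 to 165 FPKM, with 6 of 8 estimates lower and a median of -0.15. Dendritic cell markers summed to 9.57 to 10.1 against 6.96 to 7.57, which *Flt3* alone carried (8.72 to 9.49 against 6.39 to 6.77). The other dendritic cell markers overlapped, at 0.56 to 0.85 against 0.57 to 0.82 FPKM, and of the 4 estimates 3 were higher and 1 lower. Plasma cell markers had 5 of 6 estimates lower and a median of -0.13, with overlapping sums of 134.7 to 139.2 against 138.4 to 153.9 FPKM. No gene of these lists was called, and their part in these differences was not tested.

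*Foxo3* lies on chromosome 10, 716263 bp beyond the end of *Zbtb24*, at chr10:41450358-41465582 on the plus strand. Of the genes in the table within 1 Mb of *Zbtb24*, *Cdc40*, on its other side, was called lower in B-CKO cells at 24 h, 12.97 against 21.2 FPKM (adjusted p = 0.0114), and at 48 h, 12.5 against 19.9 (adjusted p = 0.0251). *Sesn1*, which lies between *Zbtb24* and *Foxo3* and is in the FOXO list, was 12.6 against 13.6 FPKM at 24 h. At 48 h it was higher in B-CKO cells, 24.1 against 20.3 FPKM (log2 difference 0.24, limma unadjusted p = 0.00272, adjusted p = 0.29), opposite to *Foxo3*. It was not called at either time. The estimates of the other genes within 1 Mb went both ways at 48 h, and a shared shift was not tested.

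The genes whose levels ran most like each member's over the 18 libraries were sought among 9997 genes that averaged 1 FPKM or more. The libraries fall into 3 times, so these correlations of log2 values describe a shared time course. *Foxo3* was closest to *Slc44a2* (Pearson's r = 0.994), *Tpcn1* and *Itpr3*, and *Ikzf3* to *Ap3m2* (0.991), *Tmod3* and *Hectd3*. *Foxp1* was closest to *Rab11fip2* (0.993), *Abhd2* and *Mafk*. *Ikzf5* was closest to *Tax1bp1* (0.985), *Fbxo32* and *Foxo1*. For *Ikzf1* the best match was lower, 0.877 with *Glce*, followed by *Wdr11* and *9130023H24Rik*. Among members, *Ikzf3* and *Foxo3* ran most alike (r = 0.970, 18 libraries). For *Ikzf1* and *Foxo3* r was -0.577, but the direction of *Ikzf1* from 0 to 24 h depended on the scaling of the libraries.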

How the data were processed

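RNA-seq had been done on purified splenic B cells, 3 libraries per genotype and time. Per the labels and the study's methods, the authors aligned reads to mm10 with Bowtie2 and deposited FPKM values, made with Cufflinks and RSEM and given to 2 decimals; BWA and DESeq2 are also named in the submitters' processing notes, and versions are not given in the sources used here. The table holds no counts, so the authors' DESeq2 test could not be repeated and the depth per library is unknown. FPKM summed to 453150 to 563456 per library. Of 16545 gene IDs, 16512 matched RefSeq names. Each comparison was fitted with limma 3.58.1 (lmFit and eBayes with trend, R 4.3.3) on log2(FPKM + 1) over all genes above 0 in any compared library, two-sided, with Benjamini-Hochberg adjustment over all of them and a threshold of 0.05. A fold change on this scale understates the change of low genes, and folds of means are given as ratios of FPKM. Single ratios and shares were compared with exact permutation tests. The scripts were tested on simulated data. Python 3.11.15 was used for the rest. Alternatives were a pseudocount of 0.1, a filter of 1 FPKM on the mean, TPM (each library brought to a common total), scaling by the median ratio, array weights, the replicate number as a block, and leaving out each library.

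By the study's methods each replicate of splenic B cells was 1 mouse. Whether same-numbered libraries of different times come from the same mouse, or those of the 2 genotypes from a shared day, is not given in the sources used here. At 0 h the deviations of same-numbered libraries of the 2 genotypes correlated at 0.468 to 0.854, so the numbers pair them there, and likewise between 24 and 48 h in B-CKO cells (0.117 to 0.183). Between genotypes at 24 h same-numbered libraries correlated weakly, at 0.091 to 0.2, but above the -0.119 to 0.00846 of differently numbered ones. From 0 to 24 h in B-CKO cells the values were 0.0441 to 0.0555 against -0.0521 to -8.08e-05. In the remaining comparisons same-numbered and differently numbered pairs overlapped.

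The members and gene lists were chosen with earlier results of these data known. From each list, up to 4 called genes per direction with the smallest adjusted p in controls between 0 and 24 h were named, and for each member the 3 genes of highest Pearson's r. *Foxo1* was described as a relative of *Foxo3*. *Pstk*, *Foxn3*, *Cdc40*, *Sesn1*, *Irs2*, *Ccng2* and the targets called only among genes of at least 1 FPKM were named after their values were seen. A B cell marker on the list is not reported here.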

Additional observations from a re-analysis of the deposited data

How the results depend on the processing

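Every call of a member over time kept its direction under all alternatives, and 230 of 236 such values stayed past the threshold; the other 6 are the rise of *Ikzf3* in controls from 24 to 48 h. Counts of members called stayed within 1.5 times of those reported. With the replicate block, no member changed its call, and the genes called between genotypes numbered 5 in place of 15 at 24 h and 3 in place of 7 at 48 h. Counts over all genes depended on the filter. With a mean of at least 1 FPKM they were 2, 388 and 29 at 0, 24 and 48 h, and with the block added to that filter, chosen after seeing the data, 22, 704 and 116, with 2 for the interaction from 24 to 48 h. A pseudocount of 0.1 gave 46 at 24 h. Without both 0 h libraries numbered 1, also chosen after seeing the data, the interaction from 0 to 24 h had 1. Leaving out 1 library gave 0 to 1 genes at 0 h, 5 to 8 at 24 h, 0 to 6 at 48 h, 0 to 2 for the first interaction and 0 to 3 for the second.

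*Ikzf5* was called higher from 24 to 48 h in B-CKO cells without B-CKO replicate 3 of 48 h (0.18, adjusted p = 0.0405). Values that changed sign were all short of the threshold. With common totals *Ikzf1* gave -0.045 and -0.068 from 0 to 24 h in controls and B-CKO cells, and *Ikzf5* -0.018 from 24 to 48 h in controls. With the median ratio, *Foxp1* gave 0.0086 between genotypes at 24 h and 0.0061 at 48 h, and *Ikzf1* 0.011 at 48 h and 0.028 from 24 to 48 h in B-CKO cells. *Ikzf1* was called higher from 0 to 24 h in controls with the median ratio (0.19, adjusted p = 0.0447) and without control replicate 3 of 0 h (0.16, adjusted p = 0.0464). Over single libraries left out, the genotype difference at 0 h ran from -0.071 to 0.039 for *Ikzf1*, -0.11 to 0.081 for *Foxp1*, -0.020 to 0.0036 for *Foxo3* and -0.097 to 0.085 for the median of FOXO targets. At 24 h it ran from -0.027 to 0.00087 for *Ikzf5* and -0.018 to 0.021 for *Foxp1*, and at 48 h from -0.047 to 0.021 for *Ikzf1*, -0.039 to 0.024 for *Foxp1* and -0.0014 to 0.064 for the target median. From 24 to 48 h *Ikzf5* ran from -0.034 to 0.053 in controls and *Ikzf1* from -0.051 to 0.018 in B-CKO cells. The interaction ran from -0.059 to 0.12 for *Ikzf3* from 0 to 24 h and from -0.12 to 0.0044 for *Foxo3* from 24 to 48 h. The cause of these changes was not tested. *Foxo3* stayed lower in B-CKO cells at 24 h (-0.21 to -0.08) and 48 h (-0.23 to -0.18) without any 1 library, and its adjusted p over all alternatives was 0.143 to 0.609 and 0.241 to 0.848. Fragments per gene are unknown, which limits *Ikzf2* and *Ikzf4* most.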
